A study of Homo sapiens with 9 samples.

Results

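The genes described here belong to the unfolded protein response and the integrated stress response. They were taken by symbol from a list of 41 genes known for these pathways, and each symbol matched exactly 1 of the 24344 genes in the deposited count table. The rule names genes and sets no threshold on a level, but the list was drawn up with earlier results of these data known. All 41 passed the filter on low counts, so all 41 were among the 14195 genes tested. By role, 21 form an ATF4 arm (7 transcription factors, 8 feedback and effector targets, 6 serine and one-carbon enzymes) and 16 form an ER chaperone arm (9 chaperones and co-chaperones, 3 disulfide isomerases and relatives, 4 genes of ER-associated degradation). The remaining 4 are the stress sensors EIF2AK3, ERN1 and ATF6 together with XBP1, the mRNA that ERN1 splices.

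RNA was sequenced from MDA-MB-231 cells, a human breast adenocarcinoma line of mesenchymal, triple-negative type, after 48 h of treatment. CKI (Compound Kushen Injection, which combines extracts of Kushen and Baituling) was given at 2.0 mg/mL, and injections of Kushen alone or Baituling alone were diluted in the same ratio. Each injection had 3 libraries, described by the submitters as biological replicates, and p-values measure the spread between these libraries. The design covers 1 cell line, 1 dose and 1 time, and untreated cells were not analysed here, so every difference is between injections and no direction refers to an untreated level.

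The endoplasmic reticulum (ER) folds secreted and membrane proteins. When unfolded protein accumulates, EIF2AK3 (PERK) phosphorylates the translation factor eIF2alpha, which lowers general translation while the mRNA of ATF4 is translated better, and ERN1 (IRE1) and ATF6 raise the transcription of ER chaperones and degradation genes through spliced XBP1 and cleaved ATF6. Other eIF2alpha kinases answer amino acid shortage, haem shortage or double-stranded RNA, so ATF4 targets can change apart from ER chaperones. Phosphorylation, splicing, cleavage and protein levels are not read by these counts.

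Promoter stretches are shown for the members that hold a known DNA element of these branches. The RefSeq promoter table (GRCh38.p14, 250 bases before to 50 after each start) held 37 of the 41 genes. It had no entry for NUPR1, PSPH, SHMT2 and ALDH1L2. Searched on both strands, the ER stress response element ERSE (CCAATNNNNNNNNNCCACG) was present in 0.0806% of 27305 promoters, ERSE-II (ATTGGNCCACG) in 0.0549% and the core of the C/EBP-ATF element (TGATGNAA) in 3.67%. An ERSE was found in 4 of 16 genes of the ER chaperone arm, in XBP1 and in 0 of the 17 genes of the ATF4 arm in the table. An ERSE-II was found in 3 of the 16 ER chaperone genes, and a C/EBP-ATF core in 2 of the 17 ATF4-arm genes and in HERPUD1. Most members of both arms in the table thus had no match to their arm's element. A match is a description of the letters and not a shown binding site. The upstream stretches below are printed 5′ to 3′ on the strand of the gene, with the matches in capitals. They come from HSPA5 (chr9:125241379-125241421, minus strand), HSP90B1 (chr12:103930204-103930351, plus), CALR (chr19:12938372-12938414, plus), CRELD2 (chr22:49918542-49918584, plus) and XBP1 (chr22:28800591-28800633, minus), which hold ERSE. HYOU1 (chr11:119057262-119057402, minus), SDF2L1 (chr22:21642102-21642136, plus) and HERPUD1 (chr16:56931954-56932047, plus) hold ERSE-II. CHAC1 (chr15:40953250-40953281, plus) and ASNS (chr7:97872457-97872488, minus) hold the C/EBP-ATF core, as does the first match in HERPUD1.
HSPA5: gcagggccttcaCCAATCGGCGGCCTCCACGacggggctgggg
HSP90B1: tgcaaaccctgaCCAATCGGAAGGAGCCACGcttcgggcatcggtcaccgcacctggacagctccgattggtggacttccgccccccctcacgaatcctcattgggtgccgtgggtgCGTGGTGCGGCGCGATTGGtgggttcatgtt
CALR: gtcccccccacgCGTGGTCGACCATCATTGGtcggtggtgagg
CRELD2: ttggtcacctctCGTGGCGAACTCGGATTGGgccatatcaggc
XBP1: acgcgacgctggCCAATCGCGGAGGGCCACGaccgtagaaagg
HYOU1: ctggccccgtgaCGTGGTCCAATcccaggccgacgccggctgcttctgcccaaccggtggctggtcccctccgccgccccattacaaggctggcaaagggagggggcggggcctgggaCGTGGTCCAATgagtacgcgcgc
SDF2L1: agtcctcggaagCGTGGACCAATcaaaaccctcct
HERPUD1: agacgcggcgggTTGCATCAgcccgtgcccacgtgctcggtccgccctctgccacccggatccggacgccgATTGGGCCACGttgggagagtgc
CHAC1: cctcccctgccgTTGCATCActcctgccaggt
ASNS: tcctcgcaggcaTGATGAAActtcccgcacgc

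Library totals ranged from 20144628 to 23782071 counts, and levels are given as CPM, gene counts normalised to library sizes that edgeR's TMM method had adjusted. The TMM factors moved with the injection: CKI libraries had 1.08 to 1.10, Kushen libraries 1.02 to 1.05 and Baituling libraries 0.877 to 0.899. With plain library totals the median over all genes tested went from 0.01 to 0.08 for CKI against Kushen, from 0.03 to 0.32 for CKI against Baituling and from 0.02 to 0.23 for Kushen against Baituling, and fold changes here are relative to the TMM scale. The line's markers VIM, CD44, KRT8 and KRT18 were expressed in all groups. EPCAM averaged 7.75, 7.32 and 13.6 CPM in CKI, Kushen and Baituling, and CDH1 0.779, 0.587 and 2.01 CPM. ESR1 and PGR had at most 3 and 4 counts in any library. VIM averaged 351 CPM in CKI, 584 CPM in Kushen and 2070 CPM in Baituling libraries. KRT8 (527, 609 and 1279 CPM), KRT18 (127, 152 and 314 CPM) and CD44 (616, 644 and 904 CPM) were also highest in Baituling. The part of these shifts in the results below was not tested. In bulk RNA, fewer cells expressing a gene and less RNA per cell cannot be told apart.

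CKI was compared with Kushen to see what the Baituling component adds, and with Baituling to see what the Kushen component adds. A gene passed the test at a Benjamini-Hochberg adjusted p under 0.05 (edgeR quasi-likelihood test), and it was called when its log2 fold change also lay above 1 or below -1. The 3 comparisons share libraries, so their values stand side by side and are not independent.

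Between CKI and Kushen the medians of the ATF4 arm and the ER chaperone arm lay on opposite sides of 0. Of 41 members 29 passed, against 39.8% of all genes tested, with 11 higher and 18 lower in CKI (19.6% and 20.2% of all genes). Plain library totals changed that split to 13 higher and 10 lower. In the ATF4 arm 10 of 21 were higher and 4 lower, with a median log2 fold change of 0.17. In the ER chaperone arm 0 of 16 were higher and 11 lower, with a median of -0.20, beside a median of 0.01 over all genes tested. The only fold change above 0 in the ER chaperone arm was that of DNAJB11, at 0.02 (adjusted p = 0.755). Only DDIT3 was called, as higher in CKI, against 1.90% of all genes called either way, 1.70% higher and 0.197% lower. The libraries of the 2 groups did not overlap for 30 members, against 49.5% of all genes.

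Between CKI and Baituling the ATF4 arm was mostly lower in CKI and the ER chaperone arm was divided. The test was passed by 37 members, against 76.1% of all genes tested, with 16 higher and 21 lower in CKI (39.1% and 37.0% of all genes). Plain library totals changed that split to 19 higher and 16 lower. The ATF4 arm had 5 higher and 13 lower, with a median of -0.50, and the ER chaperone arm had 8 higher and 7 lower, with a median of 0.05, beside 0.03 over all genes. DDIT3, STC2 and ERN1 were called higher in CKI and ATF5, JDP2, PHGDH and SHMT2 lower, which makes 7 called members. Of all genes 19.1% were called, 11.2% higher and 7.91% lower. Libraries did not overlap for 38 members, against 78.3% of all genes. The number of members called was close to that background.

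Between Kushen and Baituling 37 members passed, against 71.6% of all genes tested, with 15 higher and 22 lower in Kushen (35.6% and 36.1% of all genes). The ATF4 arm had 3 higher and 17 lower, with a median of -0.59. The ER chaperone arm had 9 higher and 4 lower, with a median of 0.20, beside 0.02 over all genes. DDIT3, STC2, DNAJB9 and EIF2AK3 were called higher in Kushen and ATF5, TRIB3, PHGDH and SHMT2 lower, which makes 8. Of all genes 15.2% were called, 8.50% higher and 6.73% lower. Libraries did not overlap for 38 members, against 73.1% of all genes.

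**Figure D1:**
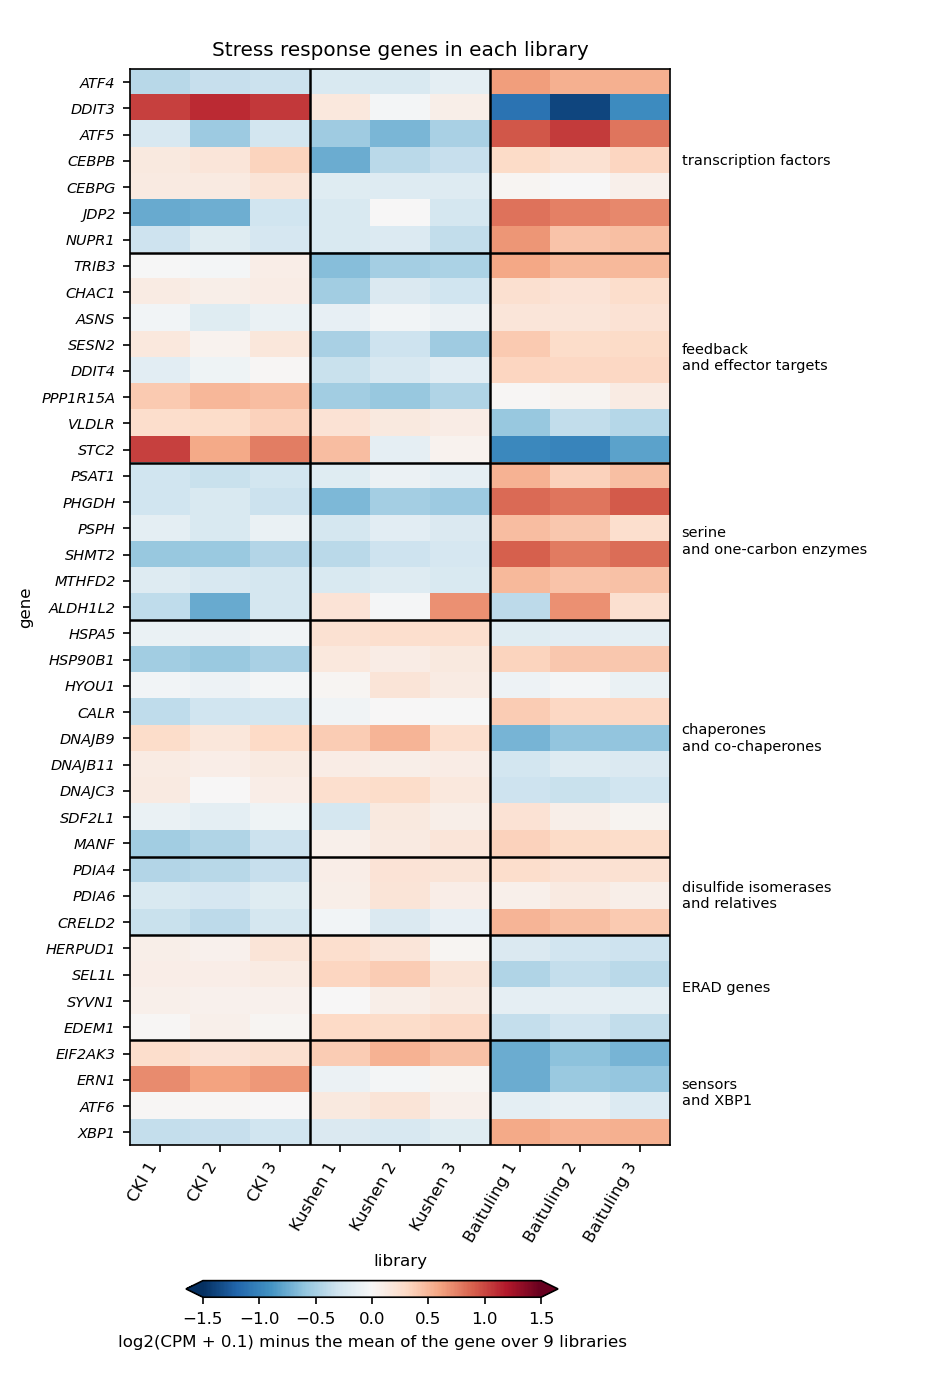
Level of each of the 41 members in each of the 9 libraries (columns, grouped by injection), as log2(CPM + 0.1) minus the member's mean over the libraries, with members ordered by arm and role. Baituling libraries are high for ATF4, ATF5, JDP2, PHGDH and SHMT2 and low for DDIT3, STC2, ERN1 and EIF2AK3.

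Among the sensors, ERN1 and EIF2AK3 differed most, and in different orders of the injections. ERN1 (chromosome 17, 62116440 to 62208179 on GRCh37, minus strand) encodes the kinase and ribonuclease that splices XBP1 mRNA. Its level was 53.6, 49.8 and 51.3 CPM in CKI, 30.9, 32.1 and 33.5 CPM in Kushen and 19.6, 22.3 and 21.9 CPM in Baituling libraries. The 3 groups did not overlap, and CKI was highest. The log2 fold change was 0.68 ± 0.06 (SE, adjusted p = 4.05e-08) against Kushen and 1.28 ± 0.06 (adjusted p = 5.29e-13) against Baituling, and Kushen against Baituling gave 0.60 ± 0.07 (adjusted p = 1.05e-07).

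EIF2AK3, which encodes PERK (chromosome 2, 88856259 to 88991036, minus strand), measured 27.5, 26.4 and 26.9 CPM in CKI, 29.8, 32.9 and 31.1 CPM in Kushen and 13.6, 14.9 and 14.02 CPM in Baituling libraries. Kushen was highest by a narrow margin, and Baituling was well below both. The log2 fold change was -0.21 ± 0.06 for CKI against Kushen (adjusted p = 0.00892), 0.93 ± 0.07 for CKI against Baituling (adjusted p = 2.49e-10) and 1.14 ± 0.07 for Kushen against Baituling (adjusted p = 1.33e-11). ATF6, the sensor that is cut in the Golgi to release a transcription factor, showed the same order with smaller steps. It measured 92.7, 92.4 and 91.9 CPM in CKI, 101, 104 and 96.6 CPM in Kushen and 82.2, 84.5 and 79.4 CPM in Baituling libraries. Its log2 fold changes were -0.13, 0.17 and 0.29 for the 3 comparisons. Each passed, but the -0.13 for CKI against Kushen (adjusted p = 0.0294) did not in 5 of 16 alternative settings.

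XBP1 ran the other way. Its total mRNA, spliced and unspliced forms together, measured 59.6, 59.9 and 62.0 CPM in CKI, 65.5, 64.2 and 67.2 CPM in Kushen and 113, 109 and 110.2 CPM in Baituling libraries. Baituling was far above the other two groups, which lay close together without overlap. The log2 fold change was -0.12 ± 0.04 for CKI against Kushen (adjusted p = 0.0411, lost in 10 of 16 alternative settings), -0.87 ± 0.04 for CKI against Baituling (adjusted p = 7.52e-13) and -0.75 ± 0.04 for Kushen against Baituling (adjusted p = 9.13e-12). ERN1 was thus lowest and XBP1 highest in the Baituling libraries.

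ATF4 and its partner DDIT3 had opposite orders. ATF4 (chromosome 22, 39915700 to 39918688, plus strand), the transcription factor that gives the arm its name, measured 242, 255 and 258 CPM in CKI, 276, 276 and 293 CPM in Kushen and 499, 467 and 466 CPM in Baituling libraries. Baituling was highest and CKI lowest, with no overlap. The log2 fold change was -0.16 ± 0.04 for CKI against Kushen (adjusted p = 0.00699, lost in 1 of 16 alternative settings), -0.92 ± 0.04 for CKI against Baituling (adjusted p = 3.2e-13) and -0.76 ± 0.04 for Kushen against Baituling (adjusted p = 7.67e-12). DDIT3 (chromosome 12, 57910371 to 57915520, minus strand) encodes CHOP, a transcription factor linked to cell death under long ER stress. It measured 40.2, 43.1 and 41.4 CPM in CKI, 22.0, 19.3 and 21.1 CPM in Kushen and 9.12, 7.57 and 10.2 CPM in Baituling libraries. CKI was highest, Kushen in between and Baituling lowest, again with no overlap. Its log2 fold change was 1.0 ± 0.07 for CKI against Kushen (adjusted p = 5.19e-09), on the line of the fold threshold, and the call was lost in 9 of 16 alternative settings. It was 2.21 ± 0.09 for CKI against Baituling (adjusted p = 1.33e-14) and 1.21 ± 0.09 for Kushen against Baituling (adjusted p = 4.91e-10).

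The ratio of DDIT3 to ATF4 counts inside a library does not depend on the scaling between libraries. It was 0.166, 0.169 and 0.160 in CKI, 0.0797, 0.0699 and 0.0720 in Kushen and 0.0183, 0.0162 and 0.0219 in Baituling libraries. The groups were far apart relative to their spread. The libraries were unstranded, and 219 of the 903 bases of the DDIT3 transcript overlap exons of MARS1 on the other strand. MARS1 averaged 198 CPM in CKI, 198 CPM in Kushen and 215 CPM in Baituling. The part of its reads in the DDIT3 levels was not tested.

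**Figure D2:**
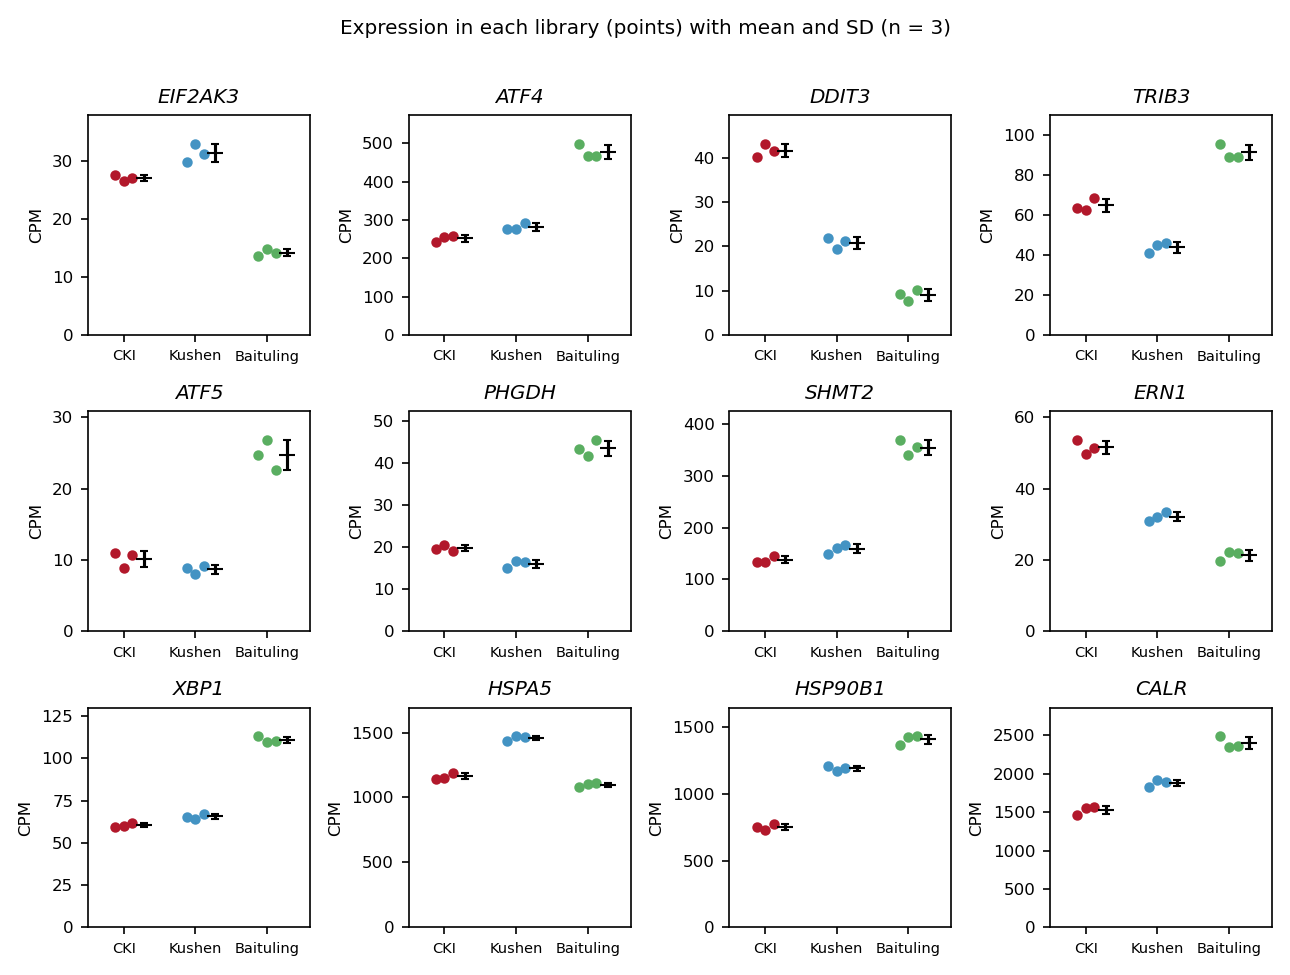
CPM in each of the 9 libraries (points, linear axes from 0) with group mean and SD (bars, n = 3) for 12 members. DDIT3 is highest in CKI (40.2 to 43.1 CPM) and lowest in Baituling (7.57 to 10.2 CPM), while ATF4 is highest in Baituling (466 to 499 CPM).

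Most of the other transcription factors of the arm were highest under Baituling. ATF5, a factor related to ATF4 that acts in mitochondrial and amino acid stress, measured 10.9, 8.86 and 10.7 CPM in CKI, 8.89, 8.0 and 9.18 CPM in Kushen and 24.7, 26.8 and 22.6 CPM in Baituling libraries. CKI and Kushen overlapped, at a log2 fold change of 0.23 ± 0.10 (adjusted p = 0.0841), and both lay below Baituling, by -1.28 ± 0.09 (adjusted p = 1.53e-10) and -1.51 ± 0.09 (adjusted p = 2.8e-11). On the other strand NUP62, which shares 196 bases with ATF5, moved with it, at 82.1, 83.9 and 170.2 CPM on average. Its part in the ATF5 difference was not tested. JDP2, a repressor of the AP-1 and ATF family, measured 8.55, 8.74 and 11.8 CPM in CKI, 12.4, 14.6 and 12.1 CPM in Kushen and 25.7, 24.6 and 24.1 CPM in Baituling libraries. CKI was lowest and Baituling highest without overlap. The log2 fold changes were -0.43 ± 0.11 (adjusted p = 0.00415), -1.36 ± 0.10 (adjusted p = 4.3e-10) and -0.93 ± 0.10 (adjusted p = 8.75e-08) for CKI against Kushen, CKI against Baituling and Kushen against Baituling. NUPR1, a small stress-induced chromatin protein, gave 0.02 for CKI against Kushen, which did not pass, and was lower than under Baituling in both, by -0.77 and -0.79.

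CEBPB and CEBPG, the C/EBP partners with which ATF4 binds DNA, set CKI and Kushen apart. CEBPB averaged 259 CPM in CKI, 157 CPM in Kushen and 268 CPM in Baituling. CKI exceeded Kushen by 0.72 ± 0.07 on the log2 scale (adjusted p = 4.09e-07), and Kushen against Baituling gave -0.77 ± 0.07 (adjusted p = 1.56e-08). CKI against Baituling gave -0.05 ± 0.07 (adjusted p = 0.526), and with plain library totals 0.23 (adjusted p = 0.00307). CEBPG gave 0.35, 0.12 and -0.23 for the 3 comparisons. Each passed, but the 0.12 for CKI against Baituling (adjusted p = 0.0352) did not in 9 of 16 alternative settings.

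The feedback and effector targets were mostly higher in CKI than in Kushen, with 6 of 8 higher, 0 lower and a median log2 fold change of 0.50, beside 19.6% higher and 20.2% lower among all genes. Against Baituling, CKI had 3 higher and 4 lower, and Kushen 2 higher and 6 lower. PPP1R15A (GADD34), the phosphatase subunit that reverses eIF2alpha phosphorylation, averaged 373 CPM in CKI, 191 CPM in Kushen and 284 CPM in Baituling. Its log2 fold change was 0.97 ± 0.05 for CKI against Kushen (adjusted p = 1.68e-11), just under the fold threshold, 0.39 ± 0.05 against Baituling (adjusted p = 1.64e-07) and -0.57 ± 0.05 for Kushen against Baituling (adjusted p = 1.09e-09). TRIB3, a pseudokinase that binds ATF4 and dampens it, measured 63.5, 62.6 and 68.6 CPM in CKI, 40.96, 44.9 and 45.9 CPM in Kushen and 95.8, 89.3 and 89.4 CPM in Baituling libraries. Baituling was highest and Kushen lowest, with no overlap. The log2 fold changes were 0.56 ± 0.06 (adjusted p = 2.6e-07), -0.50 ± 0.05 (adjusted p = 7.37e-08) and -1.06 ± 0.06 (adjusted p = 1.97e-12).

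SESN2, CHAC1 and DDIT4 shared the order of TRIB3, with Kushen lowest. SESN2, a leucine sensor that inhibits mTORC1, gave 0.57 for CKI against Kushen and -0.76 for Kushen against Baituling, both past the test, and its -0.19 for CKI against Baituling turned to 0.09 with plain library totals. CHAC1, which degrades glutathione and carries a C/EBP-ATF core in the stretch printed above, gave 0.44 and -0.58 in those comparisons. Its -0.13 for CKI against Baituling did not pass (adjusted p = 0.1) and became 0.16 (adjusted p = 0.0472) with plain library totals. DDIT4, another inhibitor of mTORC1, gave 0.17, -0.38 and -0.55, each past the test. ASNS, asparagine synthetase, holds the same core in its promoter, but its libraries overlapped between CKI and Kushen at -0.02 (adjusted p = 0.75), and both lay below Baituling, by -0.30 and -0.28.

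STC2 and VLDLR, the other targets in this group, had the order of DDIT3. STC2, a secreted glycoprotein that ATF4 induces, measured 4.98, 3.59 and 4.15 CPM in CKI, 3.34, 2.17 and 2.48 CPM in Kushen and 1.17, 1.151 and 1.32 CPM in Baituling libraries. These levels rest on 21 to 127 counts per library, so they are less precise than those of the members above. CKI was highest and Baituling lowest, with no overlap. The log2 fold changes were 0.67 ± 0.17 (adjusted p = 0.00502), 1.80 ± 0.21 (adjusted p = 2.56e-07) and 1.13 ± 0.23 (adjusted p = 0.000206). VLDLR, the receptor for very low density lipoprotein, gave 0.13 for CKI against Kushen (adjusted p = 0.0526) and was higher than under Baituling in both, by 0.75 and 0.62.

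Most serine and one-carbon enzymes were highest under Baituling. Of 6, 5 were lower in CKI than in Baituling (median log2 fold change -0.78) and 5 were lower in Kushen than in Baituling (median -0.63), with 0 higher in either. Among all genes 37.0% and 36.1% were lower in these comparisons. Between CKI and Kushen 1 was higher, 2 were lower and 3 did not pass. PHGDH, the first enzyme of serine synthesis from glycolysis, measured 19.5, 20.6 and 19.2 CPM in CKI, 14.97, 16.8 and 16.5 CPM in Kushen and 43.4, 41.8 and 45.5 CPM in Baituling libraries. Baituling was far above the rest, and CKI lay above Kushen without overlap. The log2 fold changes were 0.30 ± 0.07 (adjusted p = 0.00203), -1.14 ± 0.06 (adjusted p = 3.6e-12) and -1.44 ± 0.07 (adjusted p = 2.6e-13).

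SHMT2, the mitochondrial enzyme that turns serine into glycine and a one-carbon unit, measured 133, 134 and 146 CPM in CKI, 149.8, 160.2 and 167 CPM in Kushen and 369, 339.6 and 355 CPM in Baituling libraries. Its order was Baituling, Kushen, CKI, with no overlap. The log2 fold changes were -0.20 ± 0.05 (adjusted p = 0.00298), -1.36 ± 0.05 (adjusted p = 5.67e-15) and -1.16 ± 0.05 (adjusted p = 9.58e-14). PSAT1, the transaminase of the serine pathway, measured 140.0, 137 and 143 CPM in CKI, 152, 162 and 157 CPM in Kushen and 247, 220.3 and 237 CPM in Baituling libraries. It had the same order as SHMT2, at -0.17, -0.75 and -0.58. PSPH, which releases serine from its phosphate, and MTHFD2, the mitochondrial folate dehydrogenase, did not pass between CKI and Kushen (0.06 and -0.01). Both were lower than under Baituling, PSPH by -0.53 and -0.59 and MTHFD2 by -0.68 and -0.67. ALDH1L2, a mitochondrial formyltetrahydrofolate dehydrogenase, had 7 to 21 counts per library and passed in none of the 3 comparisons, at -0.90 ± 0.39, -0.81 ± 0.41 and 0.10 ± 0.37 (adjusted p = 0.0714, 0.0824 and 0.825), so a difference was not detectable at this depth.

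**Figure D3:**
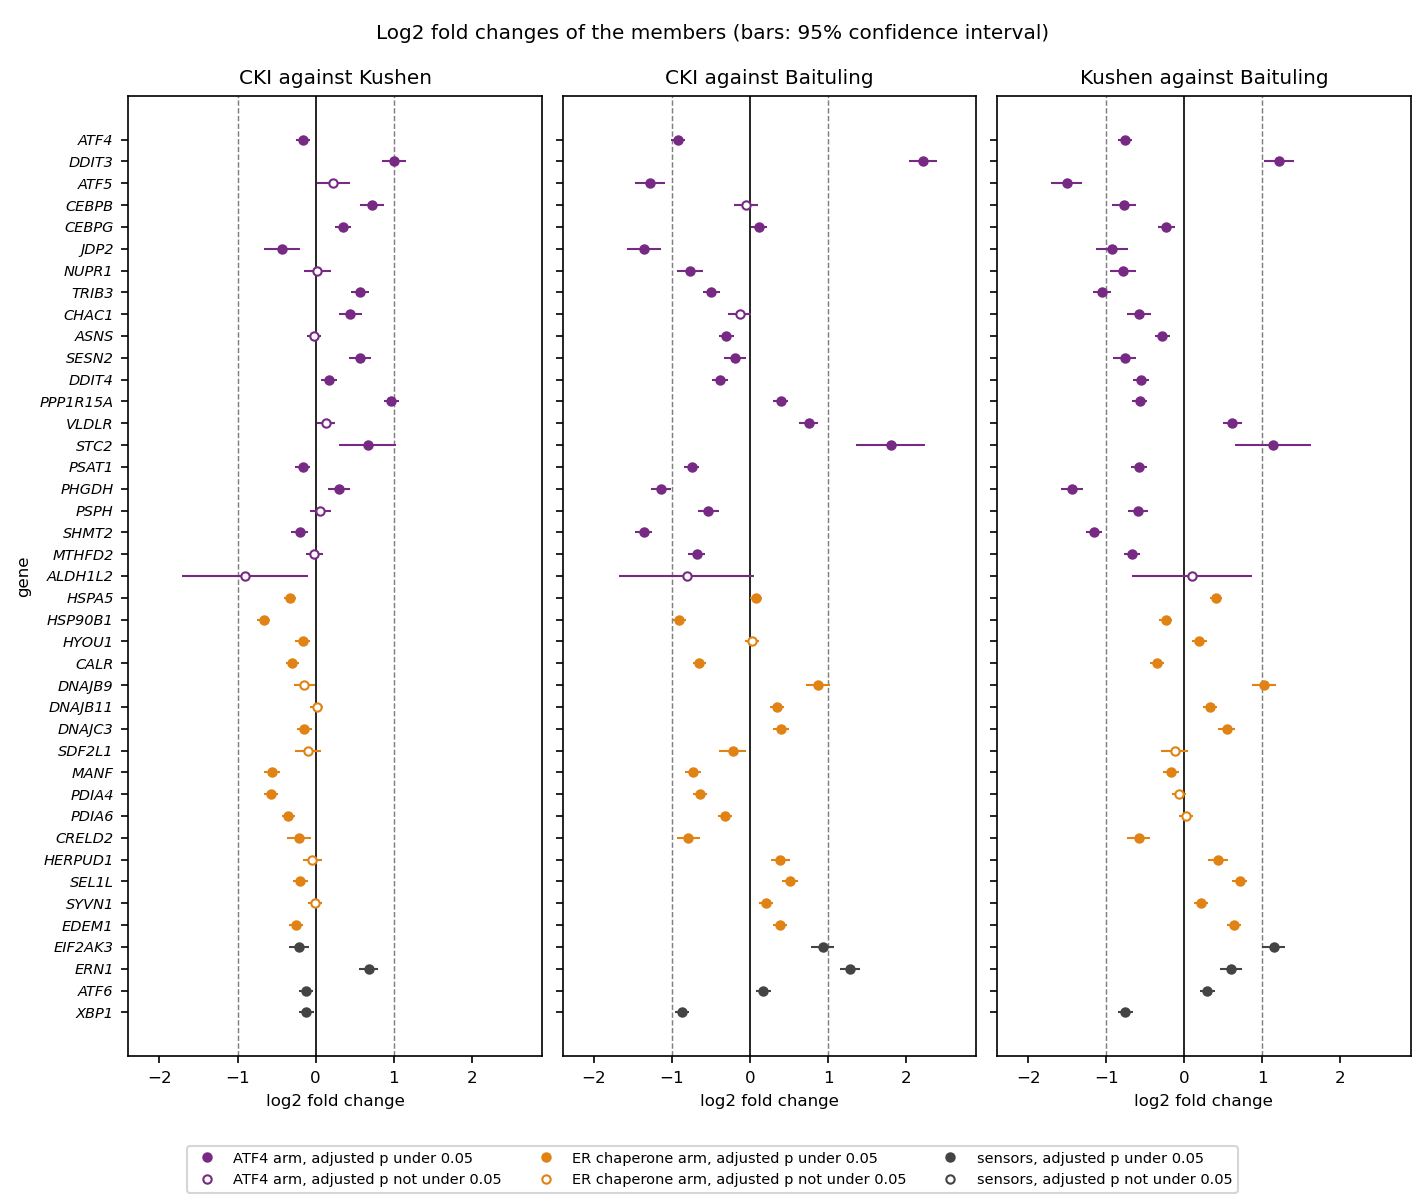
Log2 fold change of each member in the 3 comparisons, with 95% confidence intervals from the edgeR fit and members ordered by arm and role. The serine enzymes other than ALDH1L2 lie below 0 against Baituling for both CKI and Kushen, and 0 of the 16 ER chaperone genes passed as higher in CKI than in Kushen.

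Among the abundant ER chaperones, HSP90B1 and CALR were lowest under CKI and HSPA5 was highest under Kushen. HSPA5 (BiP, chromosome 9, 127997132 to 128003661, minus strand), the HSP70 of the ER lumen that holds the sensors inactive, measured 1146, 1153 and 1191 CPM in CKI, 1438, 1470.1 and 1462 CPM in Kushen and 1083, 1104 and 1111 CPM in Baituling libraries. Kushen stood above the others, and CKI lay above Baituling by a small step. The log2 fold change was -0.32 ± 0.04 for CKI against Kushen (adjusted p = 1.39e-06), 0.08 ± 0.04 for CKI against Baituling (adjusted p = 0.0495, lost in 12 of 16 alternative settings) and 0.41 ± 0.04 for Kushen against Baituling (adjusted p = 6.37e-09). HSP90B1 (GRP94), the HSP90 of the ER, measured 753, 731 and 770.5 CPM in CKI, 1208, 1170.0 and 1196 CPM in Kushen and 1364, 1426 and 1429 CPM in Baituling libraries. CKI was lowest and Baituling highest, with no overlap. Its log2 fold changes were -0.66 ± 0.04 (adjusted p = 2.33e-10), -0.90 ± 0.04 (adjusted p = 6.38e-14) and -0.24 ± 0.04 (adjusted p = 1.51e-05). CALR, the lectin chaperone calreticulin, measured 1467, 1553 and 1573 CPM in CKI, 1829.8, 1915 and 1895 CPM in Kushen and 2487, 2351 and 2358 CPM in Baituling libraries. It had the order of HSP90B1, at -0.30, -0.65 and -0.35, each past the test.

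HSPA5, HSP90B1, CALR, CRELD2 and XBP1, the members with an ERSE in the stretches printed above, were all lower in CKI than in Kushen. XBP1 stopped passing in 10 of 16 alternative settings and CRELD2 in 4. The direction was not particular to these genes. In the whole ER chaperone arm 11 of 16 were lower, beside 20.2% of all genes, and PDIA4 (-0.57) and MANF (-0.56) were among those without a match. Against Baituling the ERSE genes did not share a direction, as HSPA5 gave 0.08 and the other 4 were lower. The ERSE-II genes HYOU1, SDF2L1 and HERPUD1 gave -0.17, -0.10 and -0.04 for CKI against Kushen, of which HYOU1 passed. HYOU1, a large HSP70 relative that exchanges the nucleotide of HSPA5, was higher in Kushen than in Baituling by 0.19 and gave 0.02 for CKI against Baituling, which did not pass. SDF2L1, a co-chaperone of HSPA5, gave -0.22 for CKI against Baituling (adjusted p = 0.0216), which turned to 0.07 with plain library totals, and -0.12 for Kushen against Baituling, which did not pass.

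The J-domain co-chaperones were lower under Baituling than under the other injections. DNAJB9 (ERdj4), which draws HSPA5 onto ERN1, measured 37.0, 34.4 and 37.6 CPM in CKI, 40.0, 43.8 and 36.5 CPM in Kushen and 18.9, 20.3 and 20.3 CPM in Baituling libraries. CKI and Kushen overlapped, at -0.14 ± 0.07 (adjusted p = 0.0877), and both lay above Baituling, by 0.87 ± 0.07 (adjusted p = 1.4e-09) and 1.02 ± 0.07 (adjusted p = 1.83e-10). DNAJB11 was higher than under Baituling by 0.35 in CKI and 0.33 in Kushen, and DNAJC3 (p58IPK, an inhibitor of PERK) by 0.40 and 0.54. Between CKI and Kushen, DNAJC3 was lower in CKI (-0.14, adjusted p = 0.0214). MANF, a secreted factor that binds HSPA5, went the other way in CKI, at -0.56 against Kushen and -0.73 against Baituling. For Kushen against Baituling it gave -0.17, which turned to 0.04 with plain library totals.

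The disulfide isomerases and relatives were the only role group in which all 3 members were lower in CKI than in both other injections. PDIA4 gave -0.57 against Kushen and -0.64 against Baituling, PDIA6 -0.35 and -0.32, and CRELD2 -0.21 and -0.79. Between Kushen and Baituling, CRELD2 was lower in Kushen by -0.58, while PDIA4 (-0.07) and PDIA6 (0.02) did not pass. With plain library totals PDIA4 in that comparison became 0.14 (adjusted p = 0.00158).

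The genes of ER-associated degradation, which draws misfolded protein out of the ER to the proteasome, went against the isomerases. All 4 were higher than under Baituling in both CKI and Kushen, with medians of 0.39 and 0.53, beside 39.1% and 35.6% higher among all genes. SEL1L, the scaffold of the HRD1 ligase, was higher by 0.51 in CKI and 0.71 in Kushen, and EDEM1, a mannosidase-like lectin that picks out misfolded glycoproteins, by 0.38 and 0.63. HERPUD1 was higher by 0.39 and 0.43, and SYVN1, the ubiquitin ligase HRD1 itself, by 0.21 in both. Between CKI and Kushen, SEL1L (-0.19) and EDEM1 (-0.25) were lower in CKI, and HERPUD1 (-0.04) and SYVN1 (-0.01) did not pass.

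The arms were also compared inside each library, where the scaling between libraries cancels. The mean log2 CPM of the 21 ATF4-arm genes minus that of the 16 ER chaperone genes was -1.91, -1.94 and -1.90 in CKI, -2.38, -2.41 and -2.33 in Kushen and -1.71, -1.72 and -1.68 in Baituling libraries. The ATF4 arm was thus lowest relative to the ER chaperone arm under Kushen and highest under Baituling, and the groups were separated by more than their SD of 0.0205, 0.0390 and 0.0206 (n = 3 each). The mean of the ATF4 arm alone was 5.28 to 5.39 log2 CPM under CKI, 5.09 to 5.15 under Kushen and 5.60 to 5.62 under Baituling. For the ER chaperone arm CKI libraries had 7.22 to 7.29, Kushen libraries 7.48 to 7.53 and Baituling libraries 7.30 to 7.32 log2 CPM. Without the 6 serine and one-carbon enzymes the group means of the difference were -1.61 under CKI, -2.21 under Kushen and -1.63 under Baituling, and the CKI and Baituling libraries overlapped. The serine enzymes on their own averaged 4.51 to 4.63 log2 CPM under CKI, 4.65 to 4.79 under Kushen and 5.37 to 5.48 under Baituling. The step between CKI and Kushen in this mean is no shared direction of the enzymes. ALDH1L2, at 7 to 21 counts per library, gave -0.90 there and did not pass. The other enzymes lay on both sides of 0, at -0.17 (PSAT1), 0.30 (PHGDH), 0.06 (PSPH), -0.20 (SHMT2) and -0.01 (MTHFD2). Leaving out the serine enzymes thus removed the gap between CKI and Baituling in this mean, and not the gap of both to Kushen. The remaining genes of the arm were divided between CKI and Baituling. Of the transcription factors 2 were higher and 4 lower in CKI, with a median of -0.77. Of the feedback and effector targets 3 were higher and 4 lower, with a median of -0.16. Among all genes 39.1% were higher and 37.0% lower. DDIT3 (2.21) and STC2 (1.80) had the largest changes upward.

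**Figure D4:**
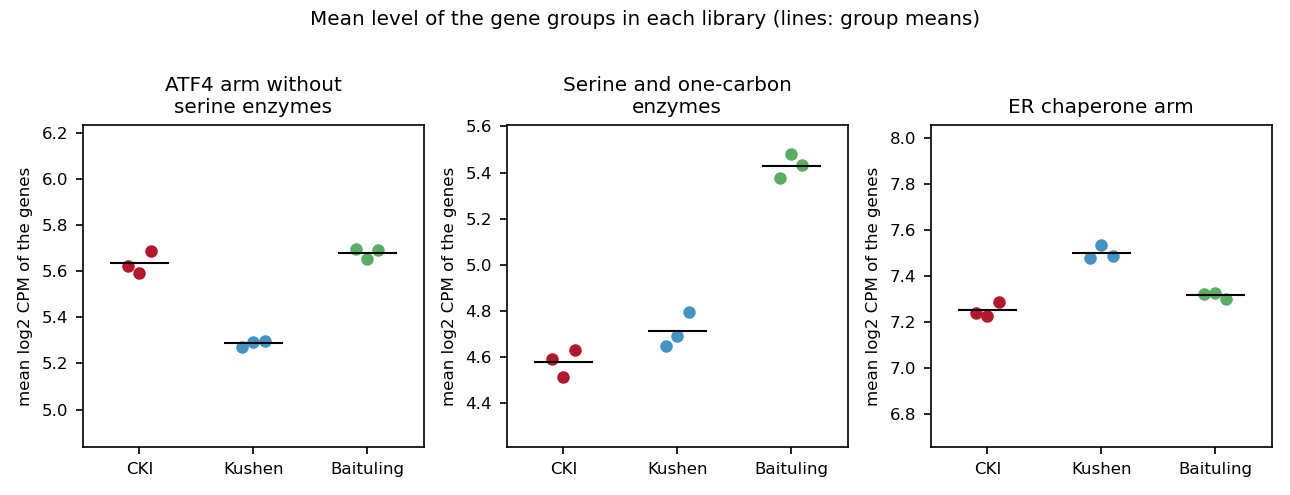
Mean log2 CPM in each of the 9 libraries (points, lines for group means) over the ATF4 arm without the serine enzymes, over the 6 serine and one-carbon enzymes and over the ER chaperone arm. Kushen lies lowest in the first panel (5.27 to 5.30) and highest in the last (7.48 to 7.53), and Baituling stands alone in the middle one (5.37 to 5.48).

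The members can also be read by the order of their group means. In the ATF4 arm 9 of 21 had Baituling highest and Kushen lowest, an order held by 0 of the ER chaperone genes and by 16.5% of all genes tested. In the ER chaperone arm 8 of 16 had Kushen highest and Baituling lowest with CKI between, an order held by 0 of the ATF4 arm and by 17.2% of all genes. The order of ATF4, with Baituling highest and CKI lowest, was shared by 6 genes of each arm and by XBP1, and by 25.7% of all genes. The order of DDIT3, with CKI highest and Baituling lowest, was shared by 3 ATF4-arm genes including DDIT3 itself, 1 ER chaperone gene and ERN1, against 28.4% of all genes. Many of these orders hold a step between neighbours that did not pass the test. Among the 9 of the ATF4 arm these were ATF5, NUPR1 and PSPH (CKI against Kushen) and CEBPB and CHAC1 (CKI against Baituling). Among the 8 of the ER chaperone arm these were DNAJB9, HERPUD1 and SYVN1 (CKI against Kushen) and HYOU1 (CKI against Baituling). Some neighbours in the other orders did not differ past the test either, as given for each gene above.

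Per kilobase of transcript, the scale on which genes can be compared, CALR was the most abundant member in every group, at 805, 989 and 1262 CPM per kb in CKI, Kushen and Baituling. In CKI it was followed by HSPA5 (297 CPM per kb) and HSP90B1 (270.2 CPM per kb), whereas in Baituling HSP90B1 (506 CPM per kb) and ATF4 (336 CPM per kb) came before HSPA5 (280.3 CPM per kb). DDIT3 went from 46.0 CPM per kb in CKI to 23.0 in Kushen and 9.93 in Baituling. STC2 and ALDH1L2 were the least abundant, at 1.0 and 0.05 CPM per kb in CKI.

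Genes of the same pathways outside the 41 were described from 2 further lists. Of 36 other genes of the integrated stress response, 35 were tested, and FGF21 was not. Between CKI and Kushen 17 were higher in CKI, 10 lower and 8 did not pass, beside 19.6% higher and 20.2% lower among all genes. GDF15, a stress-induced cytokine, and ATF3, a repressor downstream of ATF4, were called, at 1.54 and 1.53, beside 1.90% of all genes. GDF15 had the order of DDIT3, at 197, 67.4 and 43.6 CPM on average in CKI, Kushen and Baituling. Between CKI and Baituling 19 were higher and 15 lower, beside 39.1% and 37.0% of all genes, and 12 were called, beside 19.1%. The largest called higher in CKI were GDF15 (2.17), the cystine transporter SLC7A11 (1.80), the autophagy receptor SQSTM1 (1.68), ATF3 (1.24) and the ER-phagy receptor CCPG1 (1.13). The 5 called lower were PCK2 (-1.28), MTHFD1 (-1.27), MTHFD1L (-1.24), PYCR1 (-1.17) and EIF4EBP1 (-1.01). PCK2, MTHFD1, MTHFD1L and PYCR1 are enzymes of gluconeogenic, one-carbon and proline metabolism. CTH, which makes cysteine and was singled out after its values were seen, had the other direction, at 0.95 (adjusted p = 6.74e-12).

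Between Kushen and Baituling 14 of the 35 were higher in Kushen and 17 lower, beside 35.6% and 36.1% of all genes. Of these 6 were called, beside 15.2% of all genes, with SLC7A11 (1.60), SQSTM1 (1.43) and OMA1 (1.09) higher and the glutamine transporter SLC1A5 (-1.24), the apoptosis gene BBC3 (-1.09) and PCK2 (-1.03) lower. Of 40 other ER folding and degradation genes, 3 were higher and 20 lower in CKI than in Kushen, beside 19.6% and 20.2% of all genes. In that comparison 0 were called, beside 1.90% of all genes. Against Baituling, CKI had 19 higher and 12 lower, beside 39.1% and 37.0% of all genes, and Kushen had 23 higher and 9 lower, beside 35.6% and 36.1%. Only 3 of the 40 were called for CKI against Baituling and 3 for Kushen against Baituling, fewer than the 19.1% and 15.2% of all genes. The ER oxidase ERO1B (1.47 and 1.52) and the prolyl isomerase FKBP14 (1.61 and 1.38) were called higher than under Baituling in CKI and Kushen, and DERL3, of the ER-associated degradation channel family, lower (-1.59 and -1.38). DERL3 averaged only 0.516, 0.593 and 1.56 CPM in CKI, Kushen and Baituling. Of its 3093 transcript bases 2747 are shared with exons of SMARCB1 on the other strand, so its reads in these unstranded libraries cannot be assigned. For SQSTM1, 1582 of 2840 bases are shared with exons of coding genes on the other strand. The part of such reads in the DERL3 and SQSTM1 differences was not tested.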

How the data were processed

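RNA of 9 libraries (3 for each injection) was sequenced with an unstranded paired-end protocol. The authors trimmed reads with Trim Galore 0.3.7, aligned them with STAR 2.5.3a to hg19, and deposited raw whole-number counts per gene in 1 table. The counting program and annotation are not given in the sources used here, so reads shared by overlapping genes on opposite strands cannot be assigned. The table had 24566 rows. Of these, 222 repeated an Ensembl identifier with the same counts and were dropped, which left 24344 genes, and 24224 took a symbol from GENCODE on GRCh37, the assembly of hg19. Table columns were matched to libraries by the injection's initial and the replicate number.

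Genes were filtered with filterByExpr (minimum count 10, minimum total 15) in edgeR 4.0.16 on R 4.3.3, which kept 14195 and removed 10149. All 9 libraries entered 1 quasi-likelihood fit with TMM factors and group as the only term. P-values are two-sided and adjusted by Benjamini-Hochberg over all genes tested. The common coefficient of biological variation was 4.53%. DESeq2 1.42.0, DESeq2 size factors, library totals, other filters, a fit to only the groups compared, a replicate block and each library left out were run as alternatives. The fit was tested on simulated data. Log2 CPM used a prior count of 2, and CPM per kb used 1 transcript per gene. The members and lists were chosen with earlier results of these data known. Values in every library are given for members called in any comparison and for a set of core members, and of the further lists the called genes are named, up to 5 in each direction and comparison. Replicates differed from each other by more than sampling noise, so none was counted as a repeat sequencing of the same library. Whether they came from separate cultures cannot be read from this.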

Additional observations from a re-analysis of the deposited data

How the results depend on the processing

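Of 1965 fold changes of members under 16 alternatives, 1872 kept direction and side of the threshold, 59 lost and 13 gained significance, and 21 turned direction. Of those that had passed, 3 turned, all with library totals in place of TMM: SESN2 (0.093) and SDF2L1 (0.068) for CKI against Baituling and MANF (0.037) for Kushen against Baituling. Also with library totals, ASNS (0.055), MTHFD2 (0.061), HERPUD1 (0.033) and SYVN1 (0.069) turned for CKI against Kushen, CEBPB (0.23) and CHAC1 (0.16) for CKI against Baituling, and SDF2L1 (0.090) and PDIA4 (0.14) for Kushen against Baituling. With at least 10 counts in every library SYVN1 gave 0.00322 for CKI against Kushen. With 1 library left out, direction turned for CKI against Kushen in NUPR1 (-0.042 to 0.052), ASNS (-0.056 to 0.014), MTHFD2 (-0.038 to 0.0015), HERPUD1 (-0.11 to 0.0074) and SYVN1 (-0.042 to 0.010), and for Kushen against Baituling in PDIA6 (-0.011 to 0.051) and ALDH1L2 (-0.18 to 0.42), none of which had passed. The members called between CKI and Kushen were 1 (DDIT3, at the fold threshold), 0 with DESeq2 size factors, with no filter and with DESeq2, 2 with library totals, and 0 to 1 with 1 library left out: 0 without CKI replicate 2, without Kushen replicate 2 or 3, and without any one Baituling library. Library totals left 10 members lower in CKI than in Kushen. They gave ATF4-arm medians of 0.25, -0.21 and -0.38 and ER chaperone medians of -0.13, 0.34 and 0.41 for CKI against Kushen, CKI against Baituling and Kushen against Baituling. The strict filter gave ATF4-arm medians of 0.21 and -0.40 for the first pair of comparisons and ER chaperone medians of 0.10 and 0.24 for the last pair. With 1 library left out the ATF4-arm medians ran from 0.13 to 0.21, -0.54 to -0.46 and -0.65 to -0.57, and the ER chaperone medians from -0.24 to -0.18, 0.04 to 0.06 and 0.18 to 0.24. The arm difference in CKI, Kushen and Baituling was -1.67, -2.00 and -1.38 with medians, -1.61, -2.21 and -1.63 without the serine enzymes, and -2.08, -2.58 and -2.02 without the ER-associated degradation genes. Other than the scaling and filter themselves, the cause was not tested. Same-numbered libraries did not visibly deviate together (correlations of -0.07 to 0.12 over 9 pairs, 1 of them over 0.1, beside -0.15 to 0.18 for other pairs). With 3 libraries a group a weak pairing could be missed, so none was seen and none is excluded. A replicate block gave 1, 7 and 8 called and 28, 35 and 37 passed members, so no call was lost, and 3 members no longer passed: XBP1 for CKI against Kushen (adjusted p = 0.0615), and CEBPG (0.0512) and HSPA5 (0.0831) for CKI against Baituling. Over all alternatives these stopped passing in 10 of 16 (XBP1), 9 (CEBPG) and 12 (HSPA5). ATF6 (5), CRELD2 (4) and DNAJC3 (3) for CKI against Kushen and SDF2L1 (4) and SESN2 (3) for CKI against Baituling did so or turned in fewer, and 12 other fold changes in 1 each. For CKI against Kushen those in 1 setting were ATF4, DDIT4, EIF2AK3, HYOU1 and PSAT1. Depth limits ALDH1L2 (7 to 21 counts per library) and STC2 most.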
